A study of Mus musculus with 8 samples.

Results

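The chemokine ligand genes of the mouse are described here by the CpG methylation of their loci in splenic B cells and naive T cells. Members were the autosomal protein-coding genes of GENCODE M21 on the GRCm38 assembly whose symbol was Ccl, Cxcl, Xcl or Cx3cl followed by a number and, in some, a letter. The rule found 37 of 20807 autosomal protein-coding genes. They lay in 16 groups on 8 chromosomes. A group was a chain of members in which each start lay within 500 kb of the next, and 7 groups held more than 1 member. The largest was a row of 6 genes on chromosome 11 (Ccl2, Ccl7, Ccl11, Ccl12, Ccl8 and Ccl1). A locus was the gene body with 5 kb to each side, and neighbours are not independent, because 8 members had loci that overlapped another member's (Cxcl3 with Cxcl15, Ccl26 with Ccl24, Ccl2 with Ccl7, Ccl9 with Ccl6).

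Whole-genome bisulfite sequencing was carried out on 8 samples in 4 groups of 2, namely CD43- B cells from females, CD43- B cells from males, CD4+CD62L+ naive T cells from females and the same T cells from males. Cells were taken by magnetic sorting from spleens of C57BL/6J mice aged 6 to 8 weeks, the labels named no treatment and no engineered allele for any group, and each sample was a pool of animals. The 2 samples of a group shared 1 deposited file, so that each group gave a single measurement, there was no spread within a group, and the 2 sexes were the only replicates of a difference between B and T cells. Levels are given as the female and then the male file of each cell type. The p-values come from a fit with 1 residual degree of freedom and rest mainly on dispersion shared across features. For 1 kb windows they use only this shared value, a median of 1.20 times that of read counting, and none of a window's own spread between files, so that they do not measure variation between animals or samples.

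Chemokines are small secreted proteins that guide the migration of leukocytes by binding receptors of the G protein-coupled family. Homeostatic chemokines are made steadily by stromal and epithelial cells and place lymphocytes within lymphoid organs and mucosae, whereas inflammatory chemokines are induced in macrophages, activated lymphocytes, endothelium and epithelium after infection or injury. Most are clustered in the genome after repeated local duplication. CpG methylation in mammals is high over most of the genome and low at CpG-dense promoters, while CpG-poor promoters and distal elements differ more between cell types. Bisulfite sequencing does not separate 5-methylcytosine from 5-hydroxymethylcytosine, and "methylation" here means both. In sorted cells measured in bulk, a partial level in every cell and a mixture of methylated and unmethylated cells cannot be told apart.

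The files held 18216084 autosomal CpGs with 5 or more reads in all 4 groups, at a median coverage of 14 to 17 reads, and overall methylation was 79.5 to 80.7%. The labelled cell types were checked on lists of marker genes. Promoters of the 8 B cell markers had a median level of 13.3% in B cells and 72.3% in T cells, and 7 were called lower in B cells. Promoters of the 10 T cell markers had a median of 83.1% in B cells and 15.6% in T cells, and 9 were called higher in B cells. Among 13 markers of other cells of the spleen, 2 loci and 2 promoters were called, those of Cd8a and Cd8b1, all higher in B cells. Below the size for a call, the Lyz2 promoter was at -19.3 points for B minus T (adjusted p = 0.00128) and the Klrb1c locus at -6.10 points (adjusted p = 0.0106). With the calls, 3 of the 13 loci and 3 of the 13 promoters had an adjusted p under 0.05, and the other markers did not pass. Cd8a, Cd8b1, Lyz2 and Klrb1c were named after their values were seen. The promoter levels of the 13 genes ranged from 3.53% to 89.9% in B cells and from 3.92% to 92.4% in T cells, and the part of other cells in the chemokine values was not tested.

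The analysis could follow 35 of the 37 members. Ccl21b and Ccl27b, which have near-identical copies on chromosome 4, had no CpG with 5 reads in all 4 files. Their neighbours and relatives there were covered in part, with 63 of 123 reference CpGs measured for Ccl19, 76 of 99 for Ccl21a and 174 of 237 for Ccl27a, and the values of these 3 genes are uncertain because reads may be shared between copies. Between 750 and 25098 reads supported a locus in a file. The 95% Wilson interval of a locus level had a median width of 3.31 percentage points and was never wider than 5.68. Such intervals cover counting error only.

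The stretches of sequence printed here are examples of where the cell types differed within a member, and the results return to them. Runs with larger differences than some of these were found in other members and are not printed. Each is 260 bases of GRCm38.p6, written 5′ to 3′ on the strand of the gene, with every CpG in capitals. They are centred on runs of CpGs that were picked for their difference after the values had been seen, so their levels are a description without a test. The Xcl1 stretch (minus strand) lay in an intron of Xcl1 and in an exon of Gm20743, a non-coding transcript of the opposite strand. The Ccl28 stretch (plus strand) lay in an exon of a transcript annotated as a retained intron. The Ccl5 stretch (minus strand) and the Ccl4 stretch (plus strand) lay in introns.
Xcl1 chr1:164933914-164934173: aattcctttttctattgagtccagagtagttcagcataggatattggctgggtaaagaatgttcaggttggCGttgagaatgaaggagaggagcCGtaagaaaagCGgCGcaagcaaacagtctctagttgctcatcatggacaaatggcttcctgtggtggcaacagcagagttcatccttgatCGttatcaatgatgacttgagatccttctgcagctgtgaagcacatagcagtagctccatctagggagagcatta
Ccl28 chr13:119649428-119649687: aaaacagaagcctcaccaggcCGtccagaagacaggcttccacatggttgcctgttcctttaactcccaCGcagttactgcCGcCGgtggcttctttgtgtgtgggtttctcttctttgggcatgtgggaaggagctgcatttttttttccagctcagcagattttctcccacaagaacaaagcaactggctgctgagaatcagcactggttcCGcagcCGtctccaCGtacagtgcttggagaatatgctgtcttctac
Ccl5 chr11:83527182-83527441: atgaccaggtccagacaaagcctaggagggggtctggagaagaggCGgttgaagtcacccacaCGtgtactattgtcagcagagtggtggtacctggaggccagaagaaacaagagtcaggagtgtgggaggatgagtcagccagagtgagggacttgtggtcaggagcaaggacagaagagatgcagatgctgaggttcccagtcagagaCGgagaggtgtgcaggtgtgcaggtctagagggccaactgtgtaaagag
Ccl4 chr11:83663651-83663910: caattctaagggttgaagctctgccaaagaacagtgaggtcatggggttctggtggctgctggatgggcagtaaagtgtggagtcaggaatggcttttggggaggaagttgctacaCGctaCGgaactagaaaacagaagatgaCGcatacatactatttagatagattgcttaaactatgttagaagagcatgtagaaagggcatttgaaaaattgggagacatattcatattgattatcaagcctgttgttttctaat

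Over whole loci, chemokine ligand genes were highly methylated in the 4 groups. The median member level was 79.2% and 79.8% in B cells, while T cells had 80.6% and 79.8%. The medians over all 20665 measured gene loci were 75.7% and 74.6% in B cells, while T cells had 74.5% and 74.7%. Of the 35 members, 17 were higher in B cells and 18 lower, 28 had the same sign in both sexes (12759 of all 20665 loci did), and only 1, Xcl1, differed by 5 percentage points or more. The median size of the B minus T difference was 1.83 points in members and 1.26 in all loci, and the median range over the 4 files was 3.72 and 3.07 points.

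No member locus was called different between B and T cells, a call being an adjusted p under 0.05 in the quasi-binomial model with a difference of 10 points or more. The background was 189 of 20665 loci, or 0.915%. At an adjusted p under 0.05 with a difference of any size 1 member passed, against a background of 3.79%, and 10 of 35 had an unadjusted p under 0.05, against 17.3% of all loci. Another test, limma on log2 ratios, also called 0 of the 35, against 188 of 20665 loci (0.910%). The share of members was above the background for the unadjusted p alone.

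**Figure D1:**
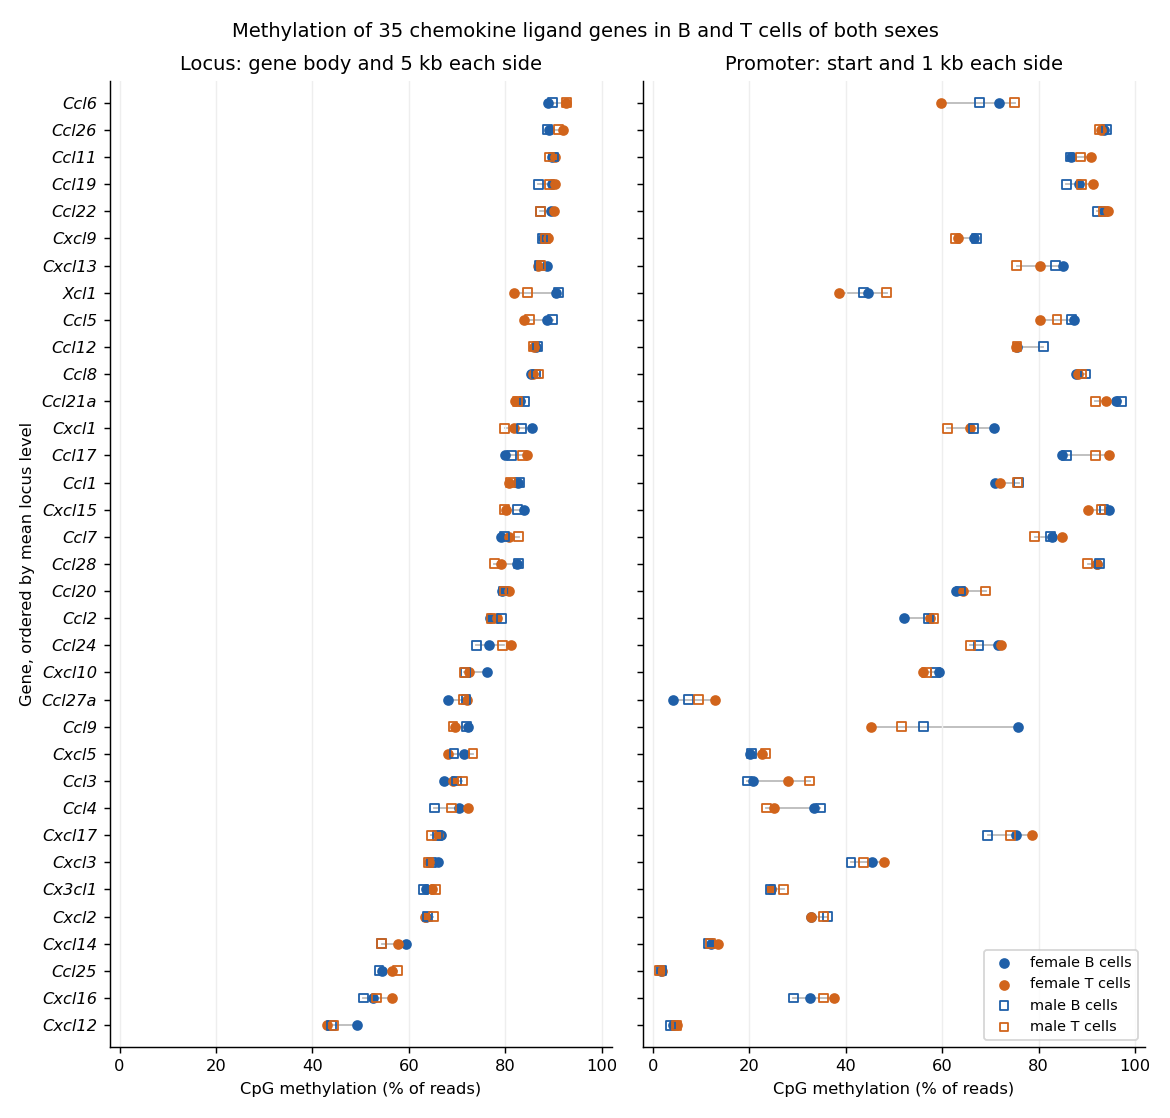
Methylation level of the locus (gene body with 5 kb each side) and of the promoter (start with 1 kb to either side) of each of the 35 measured chemokine ligand genes, in percent on the horizontal axis, with 1 point per group for female and male B and T cells. The 4 points of a locus lie close together in most genes, whereas promoters spread from 1.32% for Ccl25 to over 90%.

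The 3 loci with the lowest levels were Cxcl12, Cxcl16 and Ccl25, whose promoters were richer in CpGs than those of most members. Cxcl12, the stromal ligand that retains haematopoietic cells in marrow, had 49.1% and 43.9% in B cells, while T cells had 43.1% and 44.5%. Female B cells were the highest of the 4, and the other 3 lay close together. Cxcl16, a membrane-anchored ligand of Cxcr6, had 52.6% and 50.5% in B cells, while T cells had 56.5% and 53.2%. The lowest part of the Cxcl16 locus was its downstream flank, with a mean of 26.6% over the files, and the promoter had 33.7%. The genes Med11 and Zmynd15 also lay in this locus, so its low level cannot be assigned to the Cxcl16 promoter alone. For Ccl25, which draws T cells to thymus and small intestine, the values were 54.4% and 53.8% in B cells, while T cells had 56.6% and 57.6%, with both B cell files under both T cell files.

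The 3 highest loci were Ccl6, Ccl26 and Ccl11. Ccl6, a macrophage product found in rodents, had 88.7% and 89.8% in B cells, while T cells had 92.5% and 92.6%. Ccl26, an eosinophil attractant, had 89.0% and 88.6% in B cells, while T cells had 91.8% and 91.0%. In both genes the T cell files were the higher pair. Ccl11 (eotaxin) had 89.6% and 90.0% in B cells, while T cells had 90.4% and 89.2%, and its B and T cell files overlapped.

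Xcl1 encodes lymphotactin, a ligand made by activated CD8 T cells and natural killer cells that attracts cross-presenting dendritic cells. Its locus had 90.4% and 91.0% in B cells, while T cells had 81.8% and 84.6%. Both B cell files were above both T cell files. The mean difference was 7.5 points with an adjusted p of 0.0103, below the 10 points needed for a call. Over the gene body alone the difference was 22.2 points (adjusted p = 0.000379), and with CpGs of at least 10 reads it was 11.1 points (adjusted p = 4.05e-05), so that the call turned on where the boundary and the coverage minimum were set.

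Member promoters were more methylated than the median promoter of all genes. Within 1 kb of the start, the median member level was 71.1% and 67.1% in B cells, while T cells had 64.3% and 65.8%. The medians over all 20255 measured promoters were 13.9% and 12.9% in B cells, while T cells had 13% and 13.2%. Only 4 of 35 members (11.4%) had a promoter at or under 20% in all files, compared with 54.8% of all promoters. At the other end, 10 members (28.6%) were at or above 80% in all files, compared with 20.1%. Such levels were not particular to the ligands. The 23 chemokine receptor promoters had a median of 73.5%, with 8.70% at or under 20% and 34.8% at or above 80%, and the 15 effector cytokine promoters had 83.1%, with 13.3% and 53.3%. Within the loci, promoters were the low part, with a median over members of 66.0%, while the upstream flank had 89.3%, the rest of the body 86.9% and the downstream flank 88.5%.

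Median levels were lower in classes of promoters with higher CpG density. Density is here the observed number of CpGs in the promoter over the number its base composition would give by chance. The median member promoter held 23 CpGs and a ratio of 0.20, and the median of all promoters 65 CpGs and 0.50, while receptor promoters had a ratio of 0.22 and effector cytokine promoters 0.21. A ratio under 0.4 was found in 30 of 35 members (85.7%) and in 40.9% of all promoters. Within this class the median level was 71.4% for members and 82.8% for all, and members ranged from 21.7% (Cxcl5) to 94.7% (Ccl21a). Ratios of 0.6 or more occurred in 3 members (8.57%), Ccl25, Cxcl12 and Cxcl14, and in 35.9% of all promoters, with median levels of 4.45% and 3.60%. The remaining members, Ccl27a and Cxcl16, the latter with the start of Zmynd15 in its promoter, lay between, where members had a median of 21.1% and all promoters 10.5%. Promoters were not matched on density within these classes, and the differences in median were not tested.

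**Figure D2:**
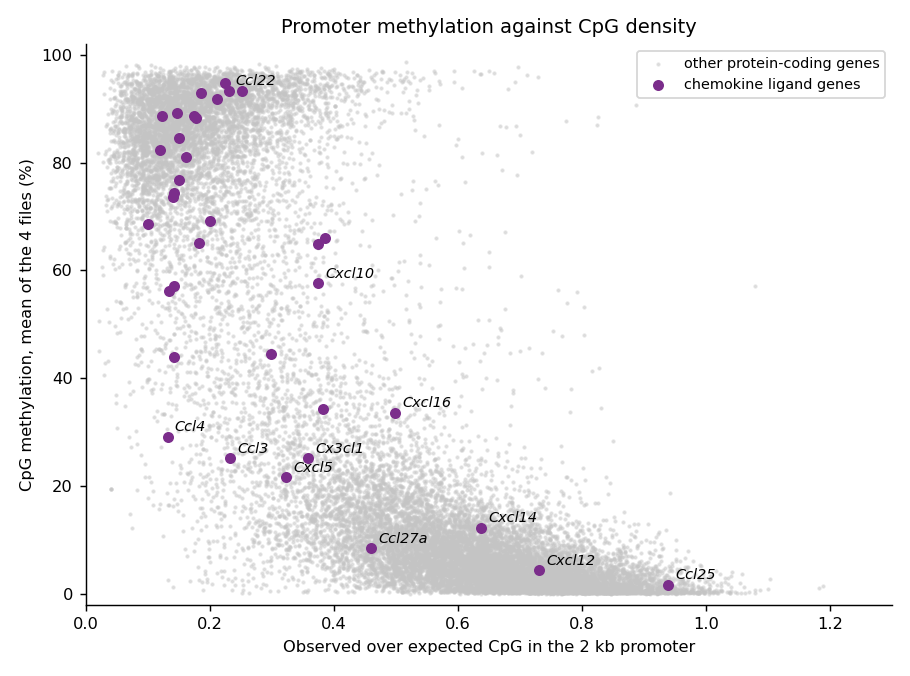
Promoter methylation (percent, mean of the 4 files) against the observed over expected CpG ratio of the promoter, for all measured promoters in grey and the 35 chemokine ligand genes in colour. Members cluster at ratios under 0.4 with levels from about 20% to 95%, and Ccl25, Cxcl12 and Cxcl14 lie at the lower right.

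The 5 lowest promoters were those of Ccl25, Cxcl12, Ccl27a, Cxcl14 and Cxcl5. The Ccl25 promoter had 1.63% and 1.81% in B cells, while T cells had 2.02% and 1.32%, all near 0. The same 2 kb held the start of Elavl1, a broadly expressed RNA-binding protein gene, so the low level cannot be assigned to Ccl25 alone. Another protein-coding start of Ccl25, at position 4349588 of chromosome 8, had 75.0% and 73.5% in B cells, while T cells had 93.2% and 88.5% over 11 CpGs. The B cell files were both lower there, and this start was looked at after the values had been seen.

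Cxcl12 had 4.15% and 3.70% in B cells, while T cells had 5.09% and 4.87%, and Cxcl14, an epithelial chemokine, had 12.2% and 11.6% in B cells, while T cells had 13.5% and 12.0%. Ccl27a, a keratinocyte chemokine that draws T cells to skin, had 4.26% and 7.36% in B cells, while T cells had 13% and 9.53%, with the T cell files above the B cell files, and its other protein-coding starts were between 92.0% and 98.1%. Cxcl5, a neutrophil attractant made by epithelium, had 20.2% and 20.4% in B cells, while T cells had 22.7% and 23.4%. Across the 35 members, 69 to 3318 reads supported a promoter in a file, and the interval had a median width of 7.89 points and a largest width of 19.

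A narrower look at the start changed which members counted as low. Within 500 bp, 7 of 35 members (20%) were at or under 20% in all files, compared with 62.8% of all promoters, and the median was 64.1% against 4.88%. Cx3cl1, Ccl4 and Cxcl5 joined the low group. Xcl1 had 21.8% and 20.8% in B cells at this width, while T cells had 7.14% and 10.9%, and it did not pass (adjusted p = 0.117). Averaged over members in bins of 500 bp, the level in the bin just upstream of the start was 48.5% and 47.7% in B cells, while T cells had 48.3% and 50.7%. For all genes it was between 33.0% and 33.4%. In the bin just downstream, members had 59.9 to 61.2% and all genes 29.5 to 29.9%.

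**Figure D3:**
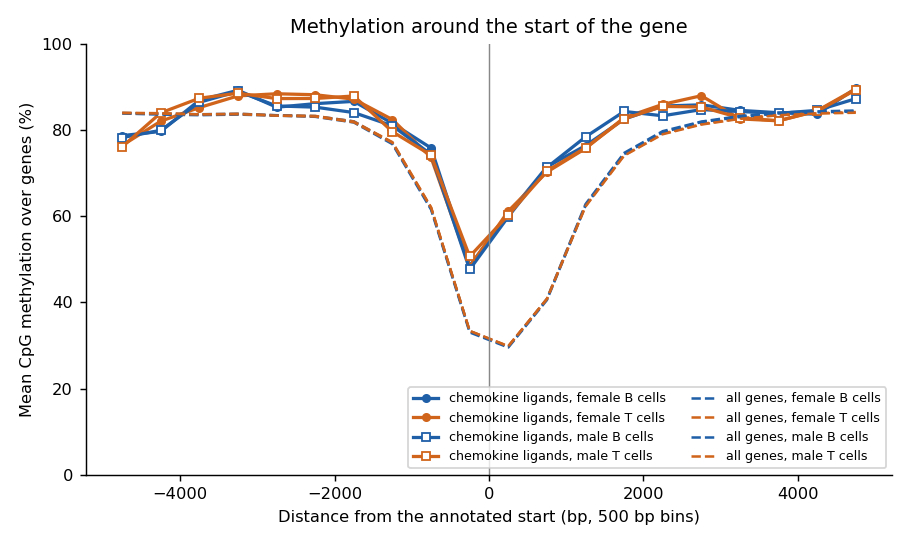
Mean methylation (percent) in 500 bp bins from 5 kb before to 5 kb after the annotated start, for chemokine ligand genes and for all protein-coding genes, with 1 line per group. The chemokine lines dip to about 48% just before the start and are back above 80% within 2 kb, while the lines of all genes dip to about 30% on both sides of the start.

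Stretches just before the starts of Cxcl10, Ccl3 and Ccl17 are printed as examples of low and high levels there. Each is the 250 bases before the RefSeq start on GRCm38.p6, taken from RefSeq and written 5′ to 3′ on the strand of the gene, with CpGs in capitals. RefSeq promoters could be matched for 27 of the 37 members. The one matched to Ccl21b, at chr4:42172870-42173169, lay far from the annotated start of that member at 42255767. The one matched to Ccl1 lay at its protein-coding start, far from the start used for its promoter level. Cxcl10 (minus strand) is an interferon-induced attractant of activated T cells, Ccl3 (minus strand) is a macrophage inflammatory protein, and Ccl17 (plus strand) is a dendritic cell product that attracts cells bearing Ccr4. These 3 were chosen after their values had been seen.
Cxcl10 chr5:92348890-92349139: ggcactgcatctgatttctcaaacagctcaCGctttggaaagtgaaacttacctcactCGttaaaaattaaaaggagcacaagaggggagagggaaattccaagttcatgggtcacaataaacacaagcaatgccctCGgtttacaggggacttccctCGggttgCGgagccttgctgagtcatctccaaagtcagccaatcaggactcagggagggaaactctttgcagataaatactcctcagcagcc
Ccl3 chr11:83649379-83649628: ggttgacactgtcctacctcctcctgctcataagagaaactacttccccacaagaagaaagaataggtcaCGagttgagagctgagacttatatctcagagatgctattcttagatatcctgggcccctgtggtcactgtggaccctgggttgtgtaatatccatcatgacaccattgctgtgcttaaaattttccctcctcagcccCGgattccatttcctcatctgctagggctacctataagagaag
Ccl17 chr8:94810203-94810452: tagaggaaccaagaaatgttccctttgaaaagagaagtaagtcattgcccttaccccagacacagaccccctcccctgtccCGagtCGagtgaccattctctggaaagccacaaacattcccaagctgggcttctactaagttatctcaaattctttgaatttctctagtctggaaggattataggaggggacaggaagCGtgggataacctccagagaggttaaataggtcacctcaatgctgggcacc

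In the Cxcl10 stretch, none of the reads at its 5 CpGs was methylated in female B, female T and male B cells, and 1.28% were in male T cells. The counts of 0 allow levels of up to 4.48%, 2.40% and 3.57%. In the 2 CpGs of Ccl3 the level was 2.56% and 2.56% in B cells, while T cells had 9.09% and 25%, on 32 to 44 reads. In the 3 CpGs of Ccl17 it was 66.1% and 64.9% in B cells, while T cells had 92.7% and 88.5%, on 41 to 61 reads. Cxcl10 was thus nearly free of methylation in all files just before its start, and both B cell files were under both T cell files in Ccl3 and Ccl17.

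Short motifs were counted in the RefSeq promoters, from 250 bases before to 50 after the start, on both strands. TATAAA occurred in 10 of 27 matched members (37.0%) and in 15.7% of all 25748 genes. A motif of the kind that NF-kB binds, GGG and TTCC separated by 3 bases of any kind, occurred in 7 members (25.9%) and 6.37% of all genes. These 7 were Ccl1, Ccl20, Ccl9, Cxcl1, Cxcl10, Cxcl2 and Cxcl3. TGANTCA, the letters of an AP-1 site, occurred in 6 members (22.2%) and 9.05%, and a pair of GAAA separated by 2 bases, as in interferon-response elements, in 3 members (11.1%) and 4.02%. Matches of different motifs could overlap, a match is no proof of a site, and members of one row of duplicated genes share sequence. The 27 include Ccl21b, whose matched promoter lay far from its annotated start.

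No member promoter was called different between B and T cells, where a call needed an adjusted p under 0.05 and 20 points or more. The background was 205 of 20255 promoters, or 1.01%. Of the 35 members, 3 had an adjusted p under 0.05 at any size, against a background of 4.9%, and 7 had an unadjusted p under 0.05, against 14.7%. Limma on log2 ratios called 0 of 35, against 156 of all promoters (0.770%).

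The 3 promoters that passed the test at any size were those of Ccl9, Ccl3 and Ccl17, and they are named for that after the values were seen. Ccl9, a macrophage chemokine that attracts dendritic cell precursors, had 75.7% and 56.1% in B cells, while T cells had 45.2% and 51.6%. Both B cell files were the higher ones, but the difference was large in females and small in males. The mean difference of 17.5 points had an adjusted p of 0.0400, and without the female B cell file it was 7.70 points (adjusted p = 0.686), and within 500 bp of the start it was 2.35 points.

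Ccl3 had 20.8% and 19.6% in B cells, while T cells had 28.0% and 32.5%, which is -10.0 points for B minus T with an adjusted p of 0.0451. Ccl17 had 84.8% and 85.8% in B cells, while T cells had 94.6% and 91.8%, a difference of -7.89 points (adjusted p = 0.0369). In both the B cell files lay below the T cell files, and the printed stretches are parts of these same promoters. Within 500 bp the differences were -15.1 points for Ccl3 (adjusted p = 0.0191) and -13.3 points for Ccl17 (adjusted p = 0.0111), still short of a call. Ccl4, the neighbour of Ccl3, had 33.3% and 34.8% in B cells, while T cells had 25.2% and 23.5%. Its B cell files were the higher ones, by 9.69 points, and it did not pass (adjusted p = 0.109).

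Grouped by role, Xcl1, the 1 XC gene, had the largest locus difference at 7.5 points (adjusted p = 0.0103), below the size for a call. The 4 measured lymphoid homing genes (Ccl19, Ccl21a, Cxcl12 and Cxcl13) had B minus T differences from -1.35 to 2.74 points, and the 7 measured epithelial and mucosal genes from -2.95 to 4.23 points. The 8 monocyte and eosinophil attracting CC genes ranged from -4.97 points for Ccl24 to 1.93 points. In Ccl24 the downstream flank was at -11.2 points, the promoter at 0.58 and the rest of the body at 0.61. This flank overlaps the upstream flank of Ccl26, which was at -6.61 points. The 5 macrophage inflammatory CC genes ranged from -3.31 points for Ccl6 to 4.70 points for Ccl5, and each had the same sign in both sexes. The 4 neutrophil attracting CXC genes ranged from -0.43 to 3.55 points, and the 2 dendritic cell products, the 2 interferon-induced CXC genes and the 2 membrane-anchored genes from -3.40 to 1.98 points. Outside the XC gene, 0 members of these groups had an adjusted p under 0.05, and Ccl24 (adjusted p = 0.0903) and Ccl5 (adjusted p = 0.055) did not pass.

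The role groups differed more in promoter level than in difference. Dendritic cell products (Ccl17 and Ccl22) had the highest median promoter level over the 4 files, 91.3%, followed by lymphoid homing genes with 84.8% and monocyte and eosinophil attracting genes with 79.6%. Epithelial and mucosal genes had 65%, interferon-induced genes 61.3% and macrophage inflammatory genes 57.2%. Xcl1 had 43.9%, neutrophil attracting genes 39.4% and membrane-anchored genes 29.4%. The groups held 1 to 8 genes, and no test was made between them.

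Differences between B and T cells were found on a finer scale. Of 669 windows of 1 kb in the member loci that held at least 3 measured CpGs, 15 (2.24%) were called, with 20 points or more and an adjusted p under 0.05. The background was 41776 of 1950708 windows, or 2.14%, so the share of called windows in chemokine loci was near that of the genome. Of the 15, 11 were higher in B cells and 4 lower. Of the 41776 called windows of the genome, 23400 were higher in B cells and 18376 lower (1.2% and 0.942% of all windows tested). They lay in the loci of 8 members, Xcl1, Ccl28, Ccl5, Ccl1, Ccl9, Ccl25, Ccl4 and Ccl24. With limma, 7 of the 669 windows (1.05%) were called, against 1.08% of all windows, all 7 among these 15, and they lay in Xcl1, Ccl28, Ccl5, Ccl1 and Ccl25. The calls in Ccl9, Ccl4 and Ccl24 and the weaker window of Ccl28, Ccl5 and Ccl1 were lost with limma.

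**Figure D4:**
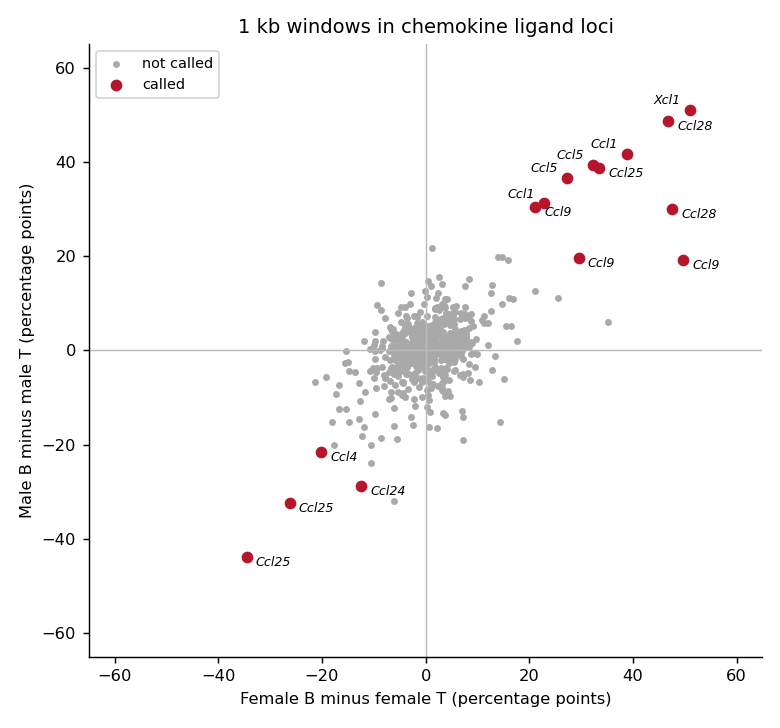
B minus T difference in methylation (percentage points) in females on the horizontal axis and in males on the vertical axis for the 1 kb windows in chemokine ligand loci, with called windows coloured and labelled by gene. The called windows lie in the upper right and lower left corners, led by Xcl1 with about 51 points in both sexes.

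Xcl1 held the window with the largest difference. At chr1:164934001-164935000, centred 1026 bp past the start, the level was 92.2% and 95.7% in B cells, while T cells had 41.2% and 44.7%, and the difference was 51.0 points (adjusted p = 3.15e-39). The groups did not overlap. The printed stretch crosses the edge of this window, and its run of 5 CpGs had 86.7% and 90.3% in female and male B cells, 0.725% in female T cells and 0% in male T cells, where the count of 0 allows up to 2.65%. Single CpGs of the run ranged from 72.2% to 100% in B cells and from 0% to 3.33% in T cells, on 98 to 138 reads over the run in each file.

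Ccl28, an epithelial chemokine that attracts plasma cells making IgA, held 2 called windows. The window at chr13:119649001-119650000 had 81.4% and 78.8% in B cells, while T cells had 34.6% and 30.2%, a difference of 47.7 points (adjusted p = 6.99e-40). The other, at chr13:119653001-119654000 and overlapping the UTR, had 86.8% and 80% in B cells, while T cells had 39.2% and 50%, a difference of 38.8 points (adjusted p = 6.83e-11). In both windows T cells were the lower files in each sex. The 9 CpGs of the run in the first window, of which the printed stretch holds 7, had 78.6% and 77.5% in B cells, while T cells had 9.27% and 7.95%. The promoter of Ccl28, 25682 bp upstream of the centre of this window, was above 90% in all files.

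Ccl5 (RANTES), a product of memory T cells, natural killer cells and macrophages, held 2 called windows. The intronic one, at chr11:83527001-83528000, had 92.5% and 93.6% in B cells, while T cells had 60.3% and 54.2%, a difference of 35.8 points (adjusted p = 4.33e-15). The intergenic one, at chr11:83535001-83536000 and centred at -4983 bp from the start, had 77.6% and 85.1% in B cells, while T cells had 50.3% and 48.5%, a difference of 31.9 points (adjusted p = 1.48e-11). T cells were again lower in each. The 3 CpGs of the printed intron stretch had 88.1% and 90.2% in B cells, while T cells had 38.7% and 30.6%, on 61 to 75 reads.

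**Figure D5:**
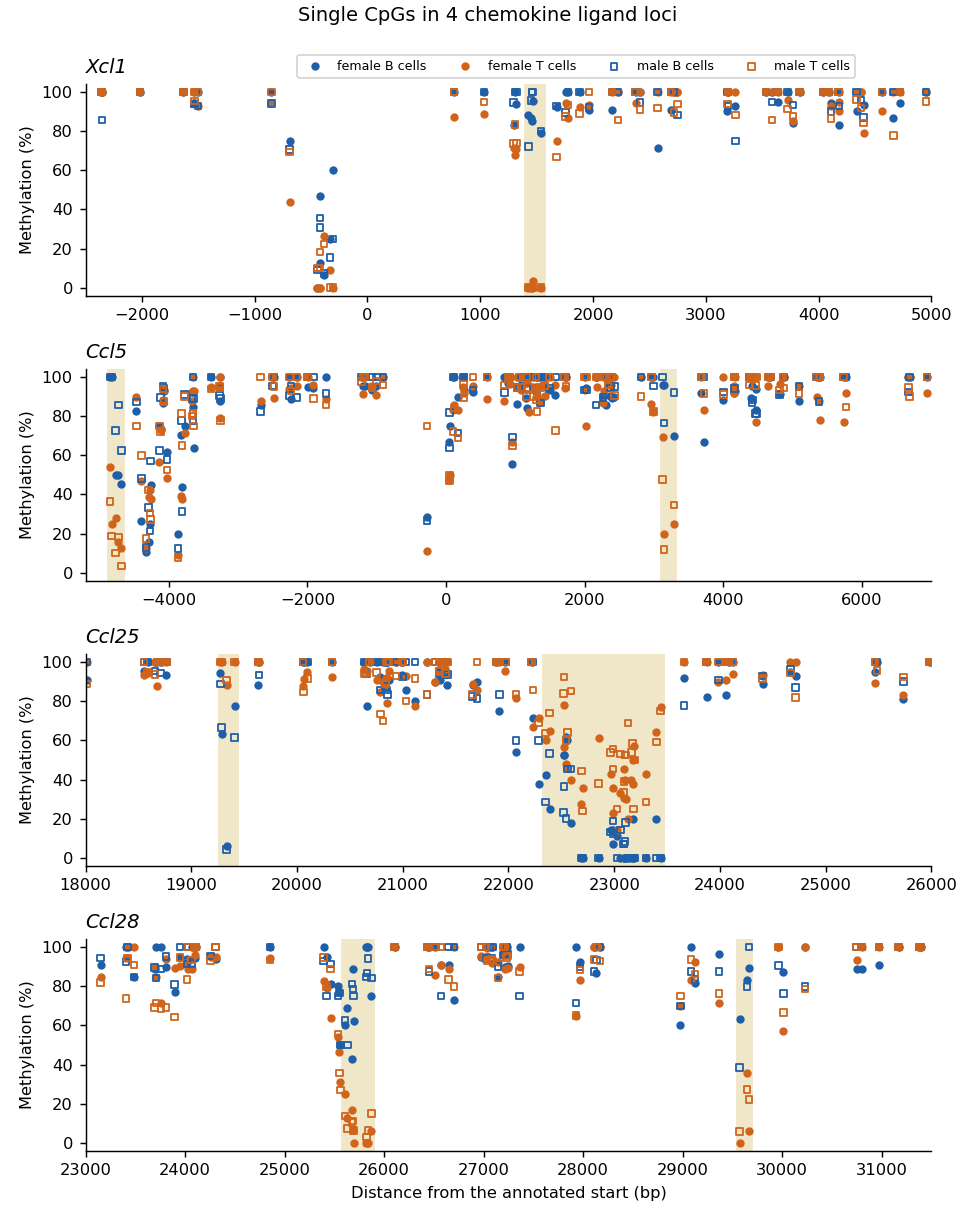
Methylation of single CpGs (percent) in the 4 groups along parts of 4 chemokine ligand loci, plotted against the distance from the start of the gene in bp. Shaded bands mark the runs, where B and T cells lie apart in Xcl1, Ccl5, Ccl25 and Ccl28, and most CpGs outside them lie above 80% in all groups.

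Ccl1, which encodes a ligand of Ccr8, owes its long locus to a non-coding processed transcript of 129034 bp, whereas its protein-coding transcripts are 3156 bp or shorter. The Ccl1 promoter counted among the members is therefore the start of the non-coding transcript. Its called windows lay inside the long transcript. At chr11:82214001-82215000 the level was 70.9% and 68.4% in B cells, while T cells had 32.0% and 26.7%, a difference of 40.3 points (adjusted p = 4.97e-16). At chr11:82206001-82207000 it was 76.8% and 75.9% in B cells, while T cells had 54.0% and 44.7%, a difference of 27.0 points (adjusted p = 5.32e-08). T cells were lower in both. With Ccl1 reduced to its protein-coding transcripts, an alternative added after seeing the data, 13 of 547 windows (2.38%) in 7 members were called, and the Ccl1 locus had 73.4% and 74.6% in B cells, while T cells had 71.4% and 70.9%. A run of 3 CpGs only 225 to 303 bp upstream of the protein-coding start had 70.4% and 73.0% in B cells, while T cells had 35.7% and 12.5%, on 27 to 56 reads. Over the whole promoter at that start, with 21 CpGs, the level was 81.6% and 82.9% in B cells, while T cells had 79.9% and 76.9%, so that the files lay much closer there.

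Ccl25 held 3 called windows in both directions. At chr8:4348001-4349000, over a coding exon and UTR, the level was 10.5% and 9.01% in B cells, while T cells had 45.0% and 52.9%, a difference of -39.2 points (adjusted p = 4.65e-30). At chr8:4320001-4321000, centred at -4709 bp from the start and in an intron of Elavl1, it was 84.2% and 85.7% in B cells, while T cells had 50.7% and 47.1%, a difference of 36.1 points (adjusted p = 2.39e-06). B cells were the lower files in the first window and the higher ones in the second. A run of 13 CpGs in the first window, 938 to 1319 bp upstream of the other protein-coding start, had 3.73% and 4.83% in B cells, while T cells had 44.1% and 52.3%. The third called window, at chr8:4344001-4345000, had 71.2% and 66.1% in B cells, while T cells had 97.3% and 98.5%, a difference of -29.3 points (adjusted p = 1.30e-10). An intron stretch on the plus strand, within this window and chosen after its values were seen, is printed here in the same manner as above.
Ccl25 chr8:4344429-4344688: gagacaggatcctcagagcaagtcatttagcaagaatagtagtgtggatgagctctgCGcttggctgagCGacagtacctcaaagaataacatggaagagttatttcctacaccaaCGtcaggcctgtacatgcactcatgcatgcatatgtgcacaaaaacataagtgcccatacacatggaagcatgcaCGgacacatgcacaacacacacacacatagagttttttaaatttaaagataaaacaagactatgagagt

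The run of 3 CpGs in that intron had 50% and 43.9% in B cells, while T cells had 95.2% and 97.3%, on 37 to 66 reads. The B cell level was uneven within the run. Its middle CpG had 5.88% and 4.35% in B cells, and the outer ones lay between 61.5% and 77.8%. Single CpGs had 88.2% to 100% in T cells. The T cell files were nearly fully methylated there.

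Ccl9 held 3 called windows, all higher in B cells. At chr11:83569001-83570000, which lay beyond the end of the gene, the level was 53.8% and 52.4% in B cells, while T cells had 32.7% and 22.1%, a difference of 25.8 points (adjusted p = 4.31e-11). At chr11:83567001-83568000, which only overlapped the edge of the locus, it was 91.7% and 89.1% in B cells, while T cells had 62.2% and 69.4%, a difference of 24.6 points (adjusted p = 2.95e-14). The groups did not overlap in either. The other window, chr11:83579001-83580000, was centred at -865 bp from the start and overlapped the promoter. It had the largest difference of the 3, 34.4 points (adjusted p = 9.58e-09), and the most uneven sexes, with 69.9% and 48.6% in B cells, while T cells had 20.2% and 29.5%.

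Ccl4 and Ccl24 each held 1 called window, lower in B cells. In Ccl4, at chr11:83664001-83665000 over a coding exon and UTR, the level was 74.3% and 66.7% in B cells, while T cells had 94.4% and 88.3%, a difference of -20.9 points (adjusted p = 1.36e-05), and the call was lost without the female T or the male B file. In Ccl24, which draws eosinophils, the window chr5:135569001-135570000 in part over the UTR had 61.7% and 53.7% in B cells, while T cells had 74.1% and 82.6%, a difference of -20.7 points (adjusted p = 1.23e-05), and the call was lost without the male B or the male T file. The printed intron stretch of Ccl4 held a run of 3 CpGs within 29 bp with 45.5% and 51.8% in B cells, while T cells had 89.1% and 83.7%, on 22 to 56 reads. B cells were lower in both genes.

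Runs of at least 3 neighbouring CpGs, no more than 200 bp apart, were listed as a description, since the difference itself selected them. Each CpG differed by 25 points or more in the mean of the sexes, with the same sign in both. In a single sex the difference could be smaller. There were 18 runs with 87 CpGs in 11 members, 10 higher and 8 lower in B cells. A run was found in 31.4% of the member loci and in 45.9% of all 20665 loci, which held more CpGs, with a median of 359 against 140. CpGs in runs made up 1.37% of those in member loci and 1.51% of those in all loci, so runs were no more frequent in members. Some lay in members without a called window. In Ccl26, 4 CpGs from -4485 to -4183 bp of the start had 20% and 18% in B cells, while T cells had 94.0% and 98.6%, a stretch that also lies in the overlapping locus of Ccl24. In Ccl6, 4 CpGs from -3107 to -2768 bp of the start, in an intron of E230016K23Rik, had 17.5% and 21.4% in B cells, while T cells had 81.9% and 76.6%. In both, B cells were low and T cells high.

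In Cxcl1, a neutrophil attractant, 4 CpGs from -428 to -308 bp of the start had 73.3% and 57.9% in B cells, while T cells had 28.9% and 43.9%, with the male files closer to each other than the female ones. Most of the rest of the loci was methylated in all files, with 431 of 669 windows (64.4%) at or above 80% in each, compared with 73.5% of all windows, and 18 (2.69%) at or under 20%, compared with 1.59%.

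Between the sexes no member locus was called, against a background of 1 of 20665 loci, or 0.00484%. The unadjusted p was under 0.05 for 3 of 35 members, against 3.91% of all loci. Limma called 0 loci, and the largest difference was 4.32 points. No promoter was called, among members or all 20255. The unadjusted p was under 0.05 for 0 of the 35 member promoters and 1017 of all promoters. None of the 669 windows was called, against 20 of all windows, or 0.00103%, and 32 (4.78%) had an unadjusted p under 0.05, against 5.21%. Limma called 0 windows.

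The receptors of these ligands were compared in the same fits, from a list of 23 genes. Against a background of 0.915% of all loci, 4 of the 23 receptor loci were called, all higher in B cells. They were Ccr7 by 27.2 points, Ccr8 by 24.1, Cxcr6 by 17.4 and Ccr9 by 12.6. Of the 23 receptor promoters, 3 were called, against 1.01% of all promoters, and these were also higher in B cells. They were Ccr8 by 61.7 points, Cxcr6 by 59.6 and Ccr2 by 32.1. Ccr7 guides naive T cells into lymph nodes, Ccr9 binds Ccl25, Cxcr6 binds Cxcl16 and Ccr8 binds Ccl1. None of the 35 ligand loci and promoters was called in these fits, and the difference between the ligand and receptor lists was not tested. Among 15 effector cytokine genes, against the same backgrounds, 0 loci and 1 promoter were called, Ifng, higher in B cells by 25.7 points. Pf4 and Ppbp, chemokines with symbols outside the rule, had 0 calls.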

How the data were processed

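Whole-genome bisulfite sequencing of 8 samples in 4 groups was analysed from 4 files, each shared by the 2 samples of a group. File names include a number that matches only 1 of both samples, whereas the labels list the file under both, so that it may hold 1 library or a pool. Per the labels, the authors trimmed reads with Trim Galore, checked them with FastQC and aligned them to mm10 with Bismark 0.13.1. Options and the treatment of duplicate reads were not given in the sources used here. The deposited files list, for each CpG with at least 5 reads, the methylated fraction, rounded to 3 decimals, and the coverage as a read count. The files held no comparison of the authors. Oxidative bisulfite libraries of the study were not analysed here.

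Methylated counts were rebuilt as the whole number nearest to the fraction times the coverage, and positions were raised by 1 to count from 1. CpGs with 5 or more reads in all 4 files were kept on 19 autosomes, and reads were summed over gene loci (body with 5 kb each side), promoters (start with 1 kb to either side) and 1 kb windows with at least 3 CpGs. A level is methylated reads over all reads. B and T cells were compared with a logistic model of quasi-binomial type that held terms for sex and for cell type, which left 1 residual degree of freedom. Dispersions were squeezed with limma (prior degrees of freedom 7.47 for loci, 21.4 for promoters and infinite for windows), and p-values of the F test were adjusted by Benjamini-Hochberg over all features of a kind. Calls needed an adjusted p under 0.05 and 10 points (loci) or 20 points (promoters, windows). Sex was tested in the same fit. The scripts were tested on simulated data. Intervals are 95% Wilson intervals.

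The members and the lists were chosen with earlier results of these data known. Named with all values were the 3 lowest and 3 highest loci, the 5 lowest promoters, each called locus or promoter, and up to 2 called windows a member, taken in order of the difference in whichever sex showed less, to which the third windows of Ccl9 and Ccl25 were added after their values were seen. Receptors and cytokines were named where called, and other features were named after their values were seen. Alternatives were 10 reads, other flanks and window sizes, 5 points (loci) or 10 points (promoters, windows), a prior without a trend, means over CpGs, limma on log2 ratios with 1 added to each count, and leaving out each file. Python 3.11.15, numpy 2.4.6, pandas 2.3.3, R 4.3.3 and limma 3.58.1 were used.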

Additional observations from a re-analysis of the deposited data

Results flagged for a closer look

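In 4 of the loci and promoters described by their own values the B minus T difference had opposite signs in the 2 sexes, and this difference between the sexes was not tested. The Cxcl12 locus was 6.04 points higher in B cells in females and -0.56 points in males, a gap of 6.60 points. The Ccl11 locus was at -0.78 points in females and 0.83 points in males, a gap of -1.61 points. The Xcl1 promoter was at 6.03 points in females and -4.85 points in males, a gap of 10.9 points. The Ccl25 promoter was at -0.39 points in females and 0.49 points in males, a gap of -0.88 points. The list is not complete, since the Ccl24 promoter was at -0.51 points in females and 1.66 points in males. Each group had 1 measurement, and no check for a sample far from the others was made.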

How the results depend on the processing

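Of the 35 loci, 0 were called, and 1, Xcl1, was called with 5 points as the threshold, with 10 reads and with the gene body alone. In the main fit 0.915% of all loci passed with 10 points and 3.79% at any size, and the share at 5 points lies between. For 10 reads and the body alone the share of all loci is not given here, so those counts have no background. Of the 35 promoters, 0 were called, 2 (Ccl9 and Ccl3) with 10 points and 1 (Ccl9) with 10 reads. The Ccl9 difference was also over 20 points without the male B or the male T file. In the main fit 1.01% of all promoters passed with 20 points and 4.9% at any size, and the share at 10 points lies between. For 10 reads the share of all promoters is not given here, so that count has no background. Of the windows, 15 were called, 37 with 10 points (5.53%, background 4.47%), 7 with limma (1.05%, background 1.08%), 31 of 969 windows of 500 bp (3.20%, background 2.83%) and 15 to 17 when each file was left out. Direction was kept by the Xcl1 locus, the Ccl3, Ccl4, Ccl9 and Ccl17 promoters and the 15 windows in each alternative that gave a value. Only 10 reads and other flanks or widths could have changed it, and for 500 bp windows the part with the larger difference was taken. Limma, the prior without a trend and the lower thresholds used the same difference. With 1 file left out the sign was fixed, because both B cell files lay on 1 side of both T cell files. The direction of other named loci and promoters was not followed. Of 15 called windows, 14 or fewer were still called without the female T file (Ccl4 lost), the male T file (Ccl24 lost) or the male B file (13, both lost), and all 15 without the female B file. With 10 reads 12 of the 13 windows that could be fitted were still called, and the Ccl5 window before the start was lost. The causes were not tested. Levels of the 3 lowest and 3 highest loci and the 5 lowest promoters were followed too. In 17 checks a level moved by at least its standard deviation over the 4 files, and in 17 it did not. With the body alone 4 loci moved and 2 did not, and with 10 kb flanks 5 moved and 1 did not. Within 500 bp of the start 4 promoters moved and 1 did not. No paired analysis was possible because the groups share no replicate number and each has 1 file. Some runs rest on under 30 reads in a file. The fit has 1 residual degree of freedom, so that prior information from other features carries the test.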
